A study of Mus musculus with 47 samples.

Results

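The 37 genes described here mark Kupffer cells, the resident macrophages of the liver, and the wider monocyte and macrophage lineage. They were chosen by name from what is known of these cells, with earlier results of these data known, and no threshold on the measured values was set. The genes fall into 6 resident Kupffer markers (Clec4f, Cd5l, Vsig4, Marco, Timd4 and Folr2) and 31 monocyte and pan-myeloid genes. Each gene is read from 1 probe, the one with the highest mean signal. Tests covered genes whose probe exceeded background clearly in 5 or more mice of some group, which held for 21737 of the 37074 genes on the array and for 36 of the 37 members. The exception was Spi1, which encodes the myeloid transcription factor PU.1: its probe was well above background on 2 of 47 arrays, and no difference is given for it. The other 36 probes were well above background on all 47 arrays.

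Liver mRNA was measured on one-colour microarrays, with 1 array per mouse, in male and female Pxr+/+ and Pxr-/- mice that received either no antibiotics (control) or antibiotics (ATB). PXR, encoded by Nr1i2, is a nuclear receptor that senses xenobiotics and bile acids in hepatocytes. ATB was 1 g/L ampicillin, 1 g/L neomycin and 0.5 g/L vancomycin in the drinking water for 2 weeks. There were 6 mice in a group, but 5 in the male Pxr-/- control group. All mice were C57BL/6J littermates of heterozygous parents, were 6 months old and were killed at ZT6, 6 h after lights on. The deletion was constitutive and present in every tissue, and the mice of each group came from 2 cages. The labels do not tie mice to cages, so the part of the cage in the differences was not tested.

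Kupffer cells line the liver sinusoids and clear bacteria, complement-coated particles and ageing red cells from portal blood. They depend on signals from the CSF1 receptor, and they are recognised by surface lectins and scavenger receptors such as CLEC4F and MARCO and by the complement receptor CRIg, the product of Vsig4. Monocytes that enter the liver carry CCR2, CX3CR1 and the integrin CD11b, and they share the Fc receptors, lysosomal enzymes and NADPH oxidase of all phagocytes. RNA from these cells is a minor part of whole liver RNA, most of which comes from hepatocytes.

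The 75th percentile of the signal before normalization ranged from 306 to 492.5 across the 47 arrays, and between 31067 and 34458 probes per array were well above background. The 8 groups were spread over 6 slides and 3 wash batches, so that each slide carried 1 mouse of each group, apart from the missing male Pxr-/- control. The Nr1i2 probe did not separate the genotypes (mean log2 signal 11.98 ± 0.31 in female Pxr+/+ and 11.68 ± 0.19 in female Pxr-/- control mice, SD, n = 6 each), and whether it lies in the deleted part is not given in the sources used here. Cyp2c55, a drug-metabolising P450 gene that the paper names as a target of PXR, did separate them: every Pxr-/- mouse was at or above 9.13 and every Pxr+/+ mouse at or below 8.49. Its signal was thus higher, not lower, in mice without PXR, and the reason for this direction was not tested. The 6 resident Kupffer markers and the 8 hepatocyte markers looked at were well above background on all 47 arrays.

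The stretches around the transcription start of 6 members are shown because they stand for the groups described below: 2 resident markers with called differences (Clec4f and Vsig4), the member with the largest difference between control females (Pilra), and the 3 members whose stretch holds the letters bound by PU.1 (C1qc, Ctss and Fcgr4). Each runs from 250 bases before to 50 bases after the start and comes from RefSeq, build GRCm38.p6. The positions are chr6:83656067-83656366 (minus strand), chrX:96293389-96293688 (minus), chr5:137836229-137836528 (minus), chr4:136892865-136893164 (minus), chr3:95526536-95526835 (plus) and chr1:171018676-171018975 (plus). Capitals mark every match to a motif searched on both strands, and the sequences read 5′ to 3′.
Clec4f: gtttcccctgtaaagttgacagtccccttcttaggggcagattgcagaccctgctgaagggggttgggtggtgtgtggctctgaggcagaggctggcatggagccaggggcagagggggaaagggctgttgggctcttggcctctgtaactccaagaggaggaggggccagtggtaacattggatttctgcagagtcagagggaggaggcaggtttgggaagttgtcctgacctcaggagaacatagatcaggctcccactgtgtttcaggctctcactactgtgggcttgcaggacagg
Vsig4: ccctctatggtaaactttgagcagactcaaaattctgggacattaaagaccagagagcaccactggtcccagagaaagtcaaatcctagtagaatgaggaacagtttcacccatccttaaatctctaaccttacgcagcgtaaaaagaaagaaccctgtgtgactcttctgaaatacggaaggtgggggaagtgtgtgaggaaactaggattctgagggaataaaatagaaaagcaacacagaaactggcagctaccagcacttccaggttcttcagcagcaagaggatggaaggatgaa
Pilra: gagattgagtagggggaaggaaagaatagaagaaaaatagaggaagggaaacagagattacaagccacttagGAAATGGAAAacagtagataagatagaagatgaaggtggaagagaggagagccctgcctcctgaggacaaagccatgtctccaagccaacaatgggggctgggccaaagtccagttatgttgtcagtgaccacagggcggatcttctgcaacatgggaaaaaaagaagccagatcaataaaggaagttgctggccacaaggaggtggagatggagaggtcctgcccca
C1qc: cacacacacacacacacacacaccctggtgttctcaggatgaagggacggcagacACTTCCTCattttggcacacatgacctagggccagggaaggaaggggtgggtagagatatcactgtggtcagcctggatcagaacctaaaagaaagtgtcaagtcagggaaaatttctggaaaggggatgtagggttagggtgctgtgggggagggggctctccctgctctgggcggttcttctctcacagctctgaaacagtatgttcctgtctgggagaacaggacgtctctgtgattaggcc
Ctss: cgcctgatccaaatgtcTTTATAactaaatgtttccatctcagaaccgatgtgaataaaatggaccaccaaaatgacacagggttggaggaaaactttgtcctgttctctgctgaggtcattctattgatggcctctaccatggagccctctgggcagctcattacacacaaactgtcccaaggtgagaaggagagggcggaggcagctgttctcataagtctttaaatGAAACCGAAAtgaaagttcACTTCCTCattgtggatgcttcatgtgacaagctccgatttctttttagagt
Fcgr4: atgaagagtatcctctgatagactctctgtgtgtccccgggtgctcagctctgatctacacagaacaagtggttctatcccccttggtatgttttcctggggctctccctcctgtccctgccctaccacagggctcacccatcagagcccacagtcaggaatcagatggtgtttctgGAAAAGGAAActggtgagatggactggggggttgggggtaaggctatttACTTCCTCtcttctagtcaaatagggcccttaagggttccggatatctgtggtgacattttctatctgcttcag

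Of the 37 members, 32 had such a stretch, 37 stretches in all; C1qa, Msr1, Tyrobp, Csf1r and Spi1 had none here. GAGGAAGT, the core bound by PU.1, was present in 3 of these 32 members, C1qc, Ctss and Fcgr4, and in 3.2% of all 32851 stretches of the same length. TATAAA, the letters of the TATA box, was present in 5 (Clec7a, Ctss, Irf8, Laptm5 and Ptprc) against 13.6%, and CACGTG, the E-box, in 0 against 7.15%. The TATAAA matches lay at 42, -233, -31, -218 and -187 bases from the start, in that order of genes. Whether any of them works as a TATA box was not tested. The letters GAAA and GAAA with any 2 bases between them, bound by interferon regulatory factors, were present in 5 (Aif1, Ctss, Cybb, Fcgr4 and Pilra) against 3.44%, and TGCTGAC, part of the element bound by MAF proteins, in 2 (Fcgr3 and Timd4) against 4.67%. These last motifs were chosen after the others. The shares over all are per stretch, while the counts given are per member. Of the 37 member stretches, 3 held GAGGAAGT, 5 TATAAA, 0 CACGTG, 5 the paired GAAA letters and 3 TGCTGAC. In the Ctss stretch the PU.1 and interferon regulatory factor letters lie close to the start, whereas the Clec4f and Vsig4 stretches hold none of the letters searched.

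Most members moved together from mouse to mouse. Over the 47 mice the median Pearson r of the 630 pairs of members was 0.81, and it was 0.66 after the group means were removed; these mice share arrays and normalization, and the values are given as a description. The members that followed the mean of the others most closely within groups were Pilra, Ly86, Tyrobp and Fcer1g (r from 0.96 to 0.97), which encode a paired immune receptor, the MD-1 partner of RP105 and the signalling adaptors DAP12 and the Fc receptor gamma chain. Trem2 (-0.05), Itgam (0.07), Ptprc (0.12) and Cx3cr1 (0.15) did not follow it on the probe read. For Ptprc the other tested probes gave larger differences between the genotypes in control females (-0.71 to -0.35 against -0.04). How closely these probes follow the mean was not tested. Among genes that are no member, Nckap1l (r = 0.98), Cd48 (0.98), Pilrb1 (0.98), Clec4a3 (0.97) and AF251705 (0.97) had levels most like the mean of the members over the 47 mice.

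The mean level of the 36 members, as log2 signal less each gene's mean over all mice, was highest in female Pxr+/+ control mice, where it ranged from 0.54 over a median of 0.78 to 1.14. It was next in female Pxr+/+ ATB mice, which were spread from -0.35 over 0.35 to 0.83, and then in female Pxr-/- control mice (-0.31, 0.09 and 0.44) and female Pxr-/- ATB mice (-0.42, -0.09 and 0.41). Males lay lower, at -0.33, -0.19 and 0.05 in Pxr+/+ control mice, -0.68, -0.19 and 0.18 in Pxr+/+ ATB mice and -0.74, -0.27 and 0.69 in Pxr-/- ATB mice. The lowest were the 5 male Pxr-/- control mice, at -0.86, -0.57 and -0.19. Neighbours in that order overlapped, while the highest group lay clear of the Pxr-/- females and of the Pxr+/+ control males. Over all other tested genes the mean level spanned less, from 0.14 ± 0.04 in female Pxr+/+ control mice to -0.13 ± 0.10 in male Pxr-/- control mice (SD, n = 6 and 5).

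**Figure D1:**
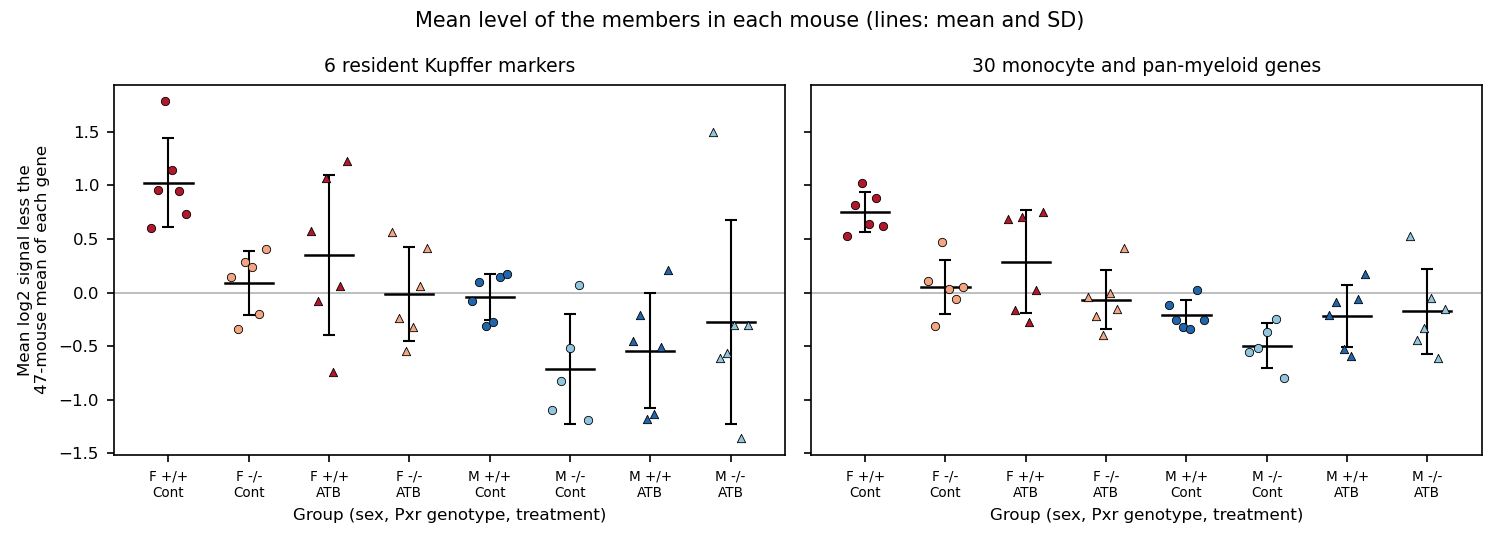
Each point is 1 mouse; the vertical axis is the mean log2 signal of the 6 resident Kupffer markers (left) or the 30 tested monocyte and pan-myeloid genes (right) less each gene's mean over the 47 mice, and lines give the group mean and SD. The mean of female Pxr+/+ control mice was highest in both panels, and 1 male Pxr-/- ATB mouse stood at 1.49 for the resident markers.

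In control females, PXR deletion was accompanied by lower signals of all 3 C1q genes and 5 of 6 Fc receptor and partner genes. On the brightest probe of each gene, 0 of 6 leukocyte surface and recruitment genes were called. A dimmer probe of Ptprc, which is in that set, was called (-0.61, limma adjusted p = 0.0251). Of the 36 members, 19 were called lower in Pxr-/- than in Pxr+/+ females and 0 higher, where called means a false discovery rate of 0.05 or less over all tested probes and a fold change above 1.2 in limma's test. Among all 21737 genes 3.05% were called lower and 3.26% either way. All 36 differences were negative, with a median of -0.81 (from -1.14 to -0.04) against -0.12 over all genes tested. In 23 members all 6 Pxr-/- females lay below all 6 Pxr+/+ females, which held for 1.66% of all genes. In whole liver RNA, fewer cells of a type and less RNA per cell cannot be told apart. Quantile normalization, which sets the median of all genes to 0.00, left the median of the members at -0.67 and 7 of the calls (0.626% of all genes were called lower under it): Msr1, Vsig4, Clec4f, Pilra, Clec7a, Cd68 and Fcgr1. The mean of the members was lower in Pxr-/- females on 6 of 6 slides, by between -1.15 and -0.42, and by -0.76, -0.81 and -0.53 in the 3 wash batches. The count rested partly on single mice. Without Pxr-/- mouse 2 it was 3, without Pxr-/- mouse 5 it was 8, and without Pxr+/+ mouse 2, 3 or 5 it was 11, 11 and 12.

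Of the 6 resident Kupffer markers, Vsig4, Clec4f and Folr2 were called lower in Pxr-/- control females and the median difference was -0.91. Vsig4, which captures complement-coated bacteria, was between 9.82 and 10.26 (median 10.09) in Pxr+/+ females and between 8.72 and 9.15 (median 8.96) in Pxr-/- females. The groups did not overlap, and the difference was -1.10 ± 0.24 (SE; limma adjusted p = 0.010). Clec4f, a galactose-binding lectin found on Kupffer cells, ranged from 12.54 over 12.88 to 13.01 and from 11.90 over 12.02 to 12.33, a difference of -0.76 ± 0.17 (limma adjusted p = 0.0116) with every Pxr-/- female below every Pxr+/+ female. Folr2, the folate receptor of resident macrophages, differed by -0.98 ± 0.25 (limma adjusted p = 0.0242). Cd5l, the secreted scavenger protein AIM, also had groups that did not overlap (13.29 to 14.27 against 12.53 to 13.15), with -0.85 ± 0.27 and an adjusted p of 0.0638 that missed the threshold in limma. Timd4, a phosphatidylserine receptor, was at 7.63, 7.75 and 8.88 against 6.63, 7.19 and 7.37, without overlap but with no call. Marco, a scavenger receptor for bacteria, varied most of all members within groups. It ranged from 10.29 to 14.01 in Pxr+/+ and from 9.57 to 11.94 in Pxr-/- females, overlapping widely, with a 95% interval of the difference from -2.80 to 0.57.

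**Figure D2:**
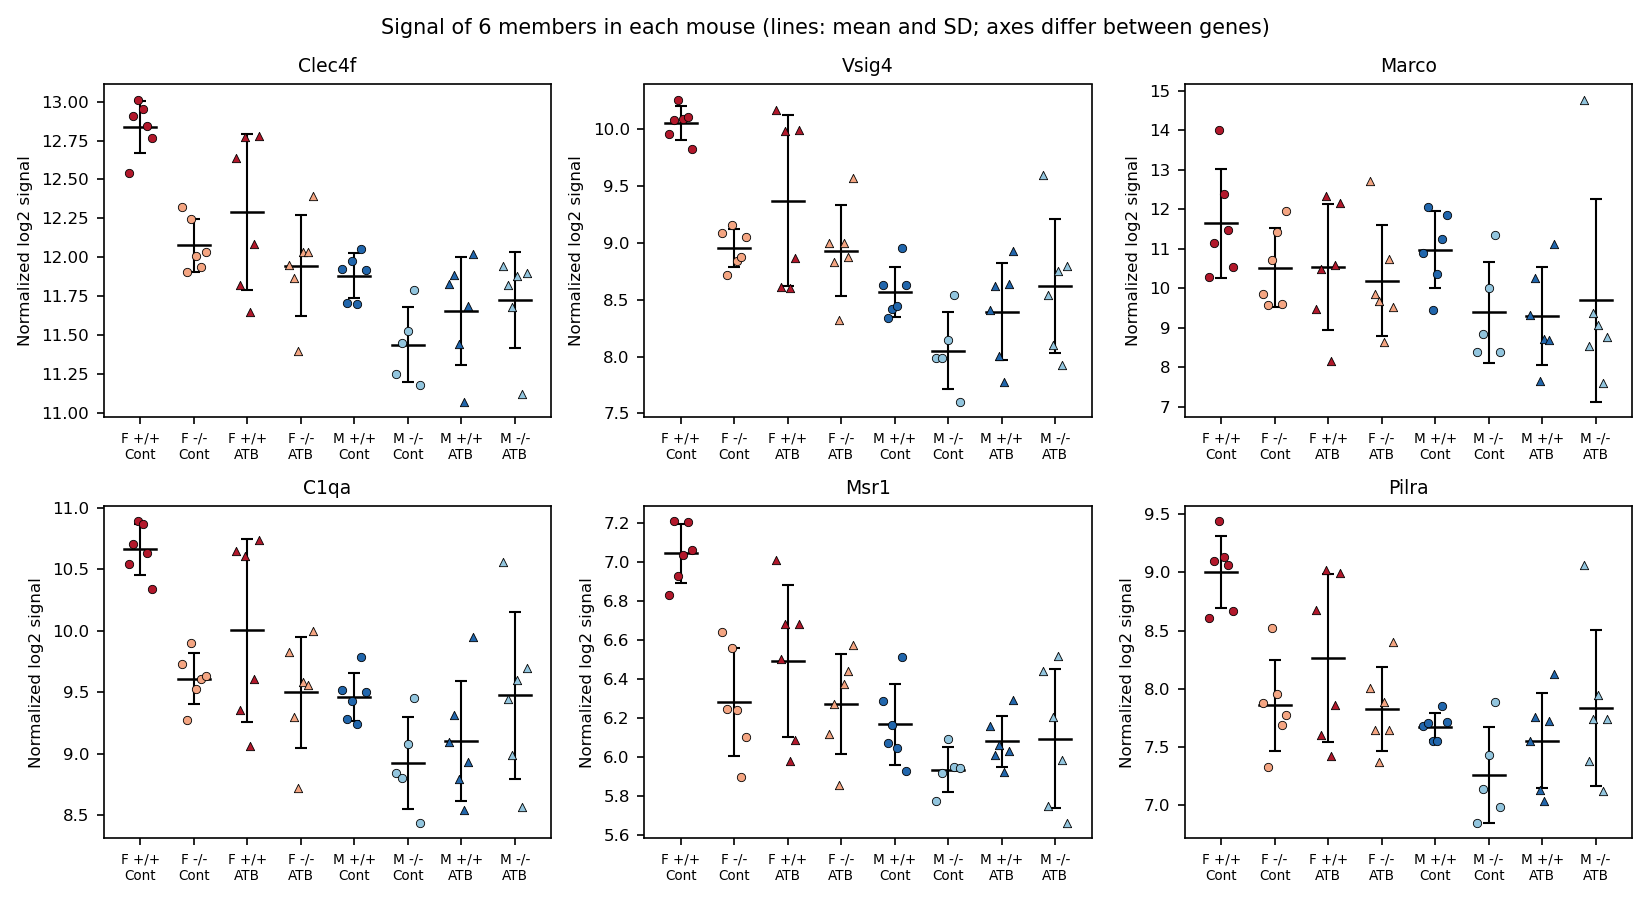
Normalized log2 signal of Clec4f, Vsig4, Marco, C1qa, Msr1 and Pilra in each of the 47 mice by group, with group mean and SD; axes differ between genes, and levels of different genes are not comparable. In control females the genotypes do not overlap for Clec4f, Vsig4, C1qa, Msr1 and Pilra, and they overlap for Marco.

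All 3 chains of complement C1q, which tags immune complexes and dying cells and is made in the liver chiefly by macrophages, were called lower. C1qa was between 10.34 and 10.89 (median 10.67) in Pxr+/+ and between 9.27 and 9.90 (median 9.62) in Pxr-/- females, without overlap. Its difference was -1.05 ± 0.26, with C1qb at -1.02 ± 0.25 and C1qc at -0.79 ± 0.22 (limma adjusted p = 0.0207, 0.0218 and 0.0355). Their 3 probes measure separate transcripts of neighbouring genes, so they are not separate replicates.

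Among the 5 scavenger, lectin and lipid receptors, Msr1, Cd68 and Clec7a were called lower. Msr1, the class A scavenger receptor that takes up modified lipoproteins, had the lowest adjusted p of all members. It was at 6.83, 7.05 and 7.21 (lowest, median and highest) in Pxr+/+ and at 5.90, 6.24 and 6.64 in Pxr-/- females. The groups did not overlap, with a difference of -0.77 ± 0.15 (limma adjusted p = 0.00389). Cd68, a lysosomal glycoprotein of macrophages, differed by -0.88 ± 0.20 and Clec7a, the beta-glucan receptor dectin-1, by -0.89 ± 0.20, and of these only Clec7a had overlapping groups. The haemoglobin scavenger receptor gene Cd163 (-0.26 ± 0.26) and the lipid-sensing receptor gene Trem2 (-0.57 ± 0.26) were not called.

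Of the 6 genes for Fc receptors and their signalling partners, 5 were called lower, and the groups did not overlap in any of the 6. Pilra, an inhibitory receptor of myeloid cells, had the largest difference of all 36 members, -1.14 ± 0.26 (limma adjusted p = 0.0123). It was at 8.61, 9.08 and 9.44 in Pxr+/+ and at 7.33, 7.83 and 8.52 in Pxr-/- females. Its second probe gave -1.02, but another, dimmer probe gave -0.12. The adaptor gene Tyrobp (-1.01 ± 0.26), the IgG receptor genes Fcgr3 (-0.93 ± 0.22) and Fcgr1 (-0.80 ± 0.19) and the gamma chain gene Fcer1g (-0.76 ± 0.22) were called, while Fcgr4 (-0.68 ± 0.23) was not. Fcgr3 and Fcgr4 are close relatives, and how far their probes read each other was not tested.

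Of the 8 lysosomal and host defence genes 4 were called lower. These were Lyz2 (-1.07 ± 0.31), the lysozyme of macrophages, Slc11a1 (-0.88 ± 0.24), which pumps metal ions out of phagosomes, Ctss (-0.81 ± 0.22), a protease of antigen processing, and Cybb (-0.81 ± 0.22), the catalytic subunit of the phagocyte NADPH oxidase. Lyz1, almost identical to Lyz2 in sequence, was at -1.02 ± 0.32 and missed the threshold, and the values of these genes may share RNA. Ly86 (-0.72 ± 0.23), the pore-forming Mpeg1 (-0.49 ± 0.19) and Laptm5 (-0.38 ± 0.17) were not called. Of the genes for lineage control, Csf1r, the receptor that macrophages need to survive, was called at -1.01 ± 0.25, but its second, dimmer probe stood at 0.040. The transcription factor gene Irf8 was at -0.45 ± 0.14 without a call. The 6 genes of leukocyte surface and recruitment held no call and had a median of -0.27. Ccr2 (-0.14 ± 0.12), Cx3cr1 (-0.27 ± 0.24), Itgam (-0.26 ± 0.18), Itgax (-0.30 ± 0.16) and Aif1 (-0.75 ± 0.29) all had overlapping groups. Ccr2 and Cx3cr1 had the dimmest probes of the tested members (mean log2 signal 5.61 and 6.13), while Msr1, which was called, had 6.33. The part of dimness in their small differences was not tested. Ptprc, which encodes CD45, was at -0.04 ± 0.10 on its brightest probe, while its other 4 tested probes gave between -0.71 and -0.35, and 1 of them was called (-0.61, limma adjusted p = 0.0251), so that the value and the call depend on the probe read.

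**Figure D3:**
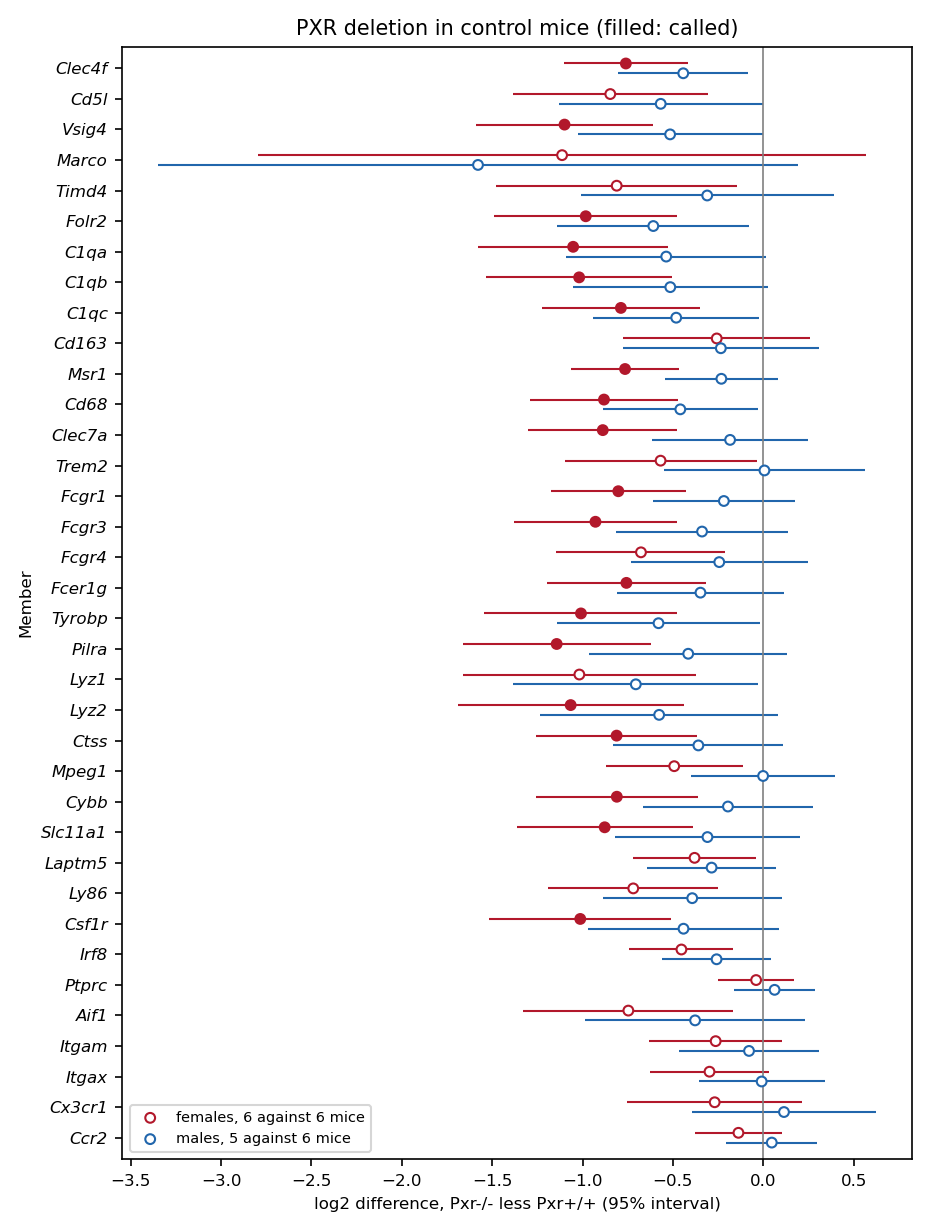
Difference in log2 signal, Pxr-/- less Pxr+/+, for the 36 tested members in control females (red, 6 against 6 mice) and control males (blue, 5 against 6 mice), with 95% intervals; filled points were called. In females 19 points are filled and all lie left of 0; in males 32 lie left of 0 and none is filled.

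In control males 0 of 36 members were called in either direction, as were 0.189% of all genes, and 8 members had an unadjusted p under 0.05 in limma. The differences were negative for 32 members, with a median of -0.34 against -0.04 over all genes, and -0.54 for the resident markers against -0.30 for the monocyte and pan-myeloid genes. Vsig4 was at 7.60, 7.99, 7.99, 8.15 and 8.54 in the 5 Pxr-/- males and at 8.34, 8.53 and 8.96 (lowest, median and highest) in Pxr+/+ males. The groups overlapped by 1 Pxr-/- mouse, and the difference was -0.52 ± 0.25 (limma adjusted p = 0.995). Clec4f was at 11.18, 11.25, 11.45, 11.53 and 11.79 against 11.70, 11.92 and 12.05, again with 1 Pxr-/- mouse inside the Pxr+/+ range, and its difference was -0.44 ± 0.18 (limma adjusted p = 0.976). The mean of the members was lower in Pxr-/- males on 5 of 5 slides, by between -0.68 and -0.06. The test of the difference between the sexes called 0 of 36 members (0.023% of all genes). Its estimates, male less female, were positive for 35 members with a median of 0.43, and 3 had an unadjusted p under 0.05 (Msr1, Clec7a and Fcgr1). For Vsig4 the 95% interval of this difference ran from -0.12 to 1.29 and for Clec4f from -0.18 to 0.82. The calls in females and their absence in males are therefore not shown to differ, and the intervals leave room for large differences.

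Of 49 tested genes of the wider macrophage programme that are no member, 14 were called lower in Pxr-/- control females and 0 higher, beside the 3.05% of all genes called lower. The other 35 were not called, 47 of the 49 differences were negative and the median was -0.57. They included Cd53 (-0.75), a tetraspanin of leukocytes, Clec1b (-0.63), a lectin of Kupffer and platelet lineages, Axl (-0.66), a receptor for dying cells, Csf1 (-0.67), the ligand of CSF1R, and Zeb2 (-0.58), a transcription factor that keeps macrophage identity. Under quantile normalization 0 of them were called and the median was -0.43. Of the markers of other liver cells, sinusoidal endothelial genes held the most calls: 6 of 10 were called lower (2 under quantile normalization), with a median of -0.57, among them Stab2 (-0.61), Clec4g (-0.59) and Kdr (-0.58). The summed endothelial signal (log2 of the added linear signals, in which the brightest probes weigh most) ranged from 14.65 to 15.07 in Pxr+/+ control females. In Pxr-/- ones it ranged from 13.79 to 14.64. Neutrophil markers had 1 call of 5 tested (Camp, -0.71), which was lost with quantile normalization, and Ngp, Ltf, Mmp9 and Cxcr2 were not well above background on enough arrays to be tested. The T and NK cell (0 of 9 called, median -0.32), B cell (0 of 5, -0.14), dendritic cell (0 of 6, -0.26), stellate cell and fibroblast (0 of 8, -0.28), cholangiocyte (0 of 6, 0.09), red cell (0 of 5, -0.03) and hepatocyte markers (0 of 8, -0.01) held no call in limma. The part of these other cell types in the members' result was not tested.

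**Figure D4:**
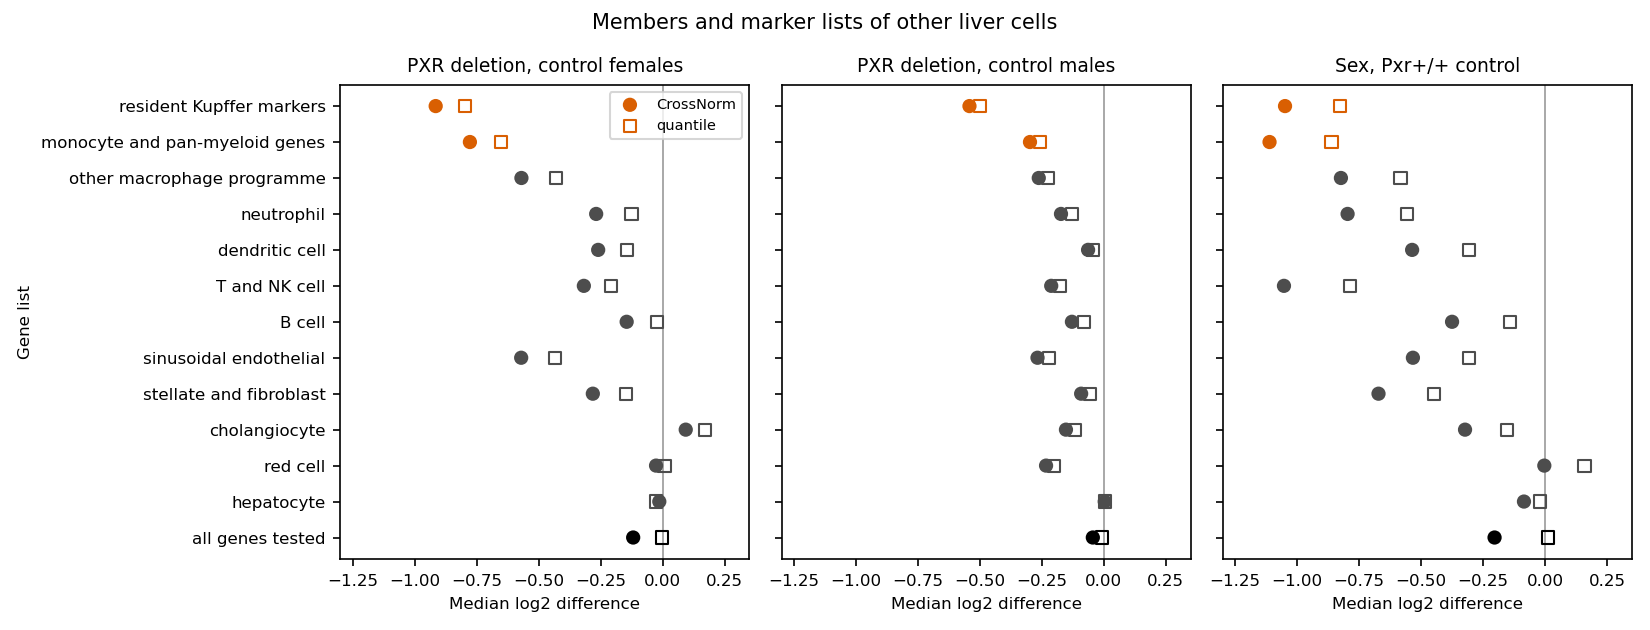
Median log2 difference of the members (orange), of marker lists of other liver cells (grey) and of all genes tested (black) in 3 comparisons, with CrossNorm (filled circles) and quantile normalization (open squares). In control females the resident markers (-0.91) and the monocyte and pan-myeloid genes (-0.78) lie furthest left, the endothelial markers (-0.57) lie between them and 0, and hepatocyte markers lie near 0.

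With ATB, the comparison of genotypes held no call among the members in either sex. In females 35 of 36 differences between Pxr-/- ATB and Pxr+/+ ATB mice were negative, with a median of -0.39 against 0.00 over all genes, of which 0.216% were called, and 10 members had an unadjusted p under 0.05. Vsig4 was at 8.60, 9.43 and 10.17 in Pxr+/+ ATB and at 8.32, 8.94 and 9.57 in Pxr-/- ATB females, so that the groups overlapped over most of their range. In males the median was 0.13 against -0.13 over all genes, 9 members were negative, and 0.948% of all genes were called. The sign of that male median rested on 1 animal: without Pxr-/- ATB mouse 1 it was -0.05. With quantile normalization and all mice kept it was 0.29, against 0.00 over all genes. The test of whether ATB altered the genotype difference called 0 members in males (0.0184% of all genes; 7 members at an unadjusted p under 0.05) and 0 in females (0% of all genes; 2 members, Msr1 and Itgam). The test of whether the genotype difference with ATB differed between the sexes also called 0 (0.046% of all genes, with 9 members at an unadjusted p under 0.05). For the change with ATB the median of the members was 0.52 in males (-0.08 over all genes, 7 members negative). In females it was 0.41 (0.13 over all genes, 1 member negative). For males less females with ATB it was 0.57 (-0.13 over all genes, 7 members negative). Pxr-/- ATB mouse 1 enters the male values. The absence of calls does not show that the effects are alike.

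The ATB comparisons within a genotype held no call among the members. In Pxr+/+ females 35 of 36 differences (ATB less control) were negative, with a median of -0.53 against -0.06 over all genes, while 0.0138% of all genes were called, and 20 members had an unadjusted p under 0.05. The 6 ATB females fell into a wide spread: Clec4f was at 11.65, 12.36 and 12.78 with ATB against 12.54, 12.88 and 13.01 without, and Msr1 at 5.98, 6.59 and 7.01 against 6.83, 7.05 and 7.21. The upper ATB mice overlapped the control range, and the lower ones lay below every control. The lowest adjusted p was that of Msr1, 0.184 in limma with a difference of -0.55 ± 0.15. In Pxr-/- females the median of the members was -0.11 against 0.05 over all genes, with 31 members negative and 0.147% of all genes called. In Pxr+/+ males it was -0.10 against 0.10, with 24 negative and 1.13% of all genes called. With quantile normalization, which set the medians of all genes to 0.00 in both, those of the members became -0.18 and -0.21. In Pxr-/- males 30 of 36 differences were positive, with a median of 0.41 against 0.02 over all genes, of which 0.11% were called. The Pxr-/- male comparison shares its control mice with the PXR deletion comparison in control males, so the 2 sets of values are not independent. Mpeg1, the perforin-2 gene of macrophages, was at 11.53, 11.70 and 12.43 in Pxr-/- ATB males and at 10.79, 11.17 and 11.52 in Pxr-/- control males, without overlap, and had an adjusted p of 0.403 in limma. Groups did not overlap in that direction for 1 of 36 members and 0.681% of all genes. Mouse 1 of the ATB males carried the highest mean level of the members, 0.69, and without it the median difference of the members was 0.22.

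Of the 4 comparisons of the sexes, that in Pxr+/+ control mice held the most calls: 32 of 36 members were called lower in males and 0 higher. This stands against 30.1% of all genes called lower and 32.3% either way. The median of the members was -1.10 (males less females) against -0.20 over all genes, and with quantile normalization, which moved the latter to 0.01, 28 members were called lower (8.37% of all genes). The counts of the 4 comparisons alone do not show that the sex difference changed between them. The sex difference in Pxr-/- less that in Pxr+/+ mice is the same contrast as the genotype difference in males less that in females. Its test called 0 members in control mice (0.023% of all genes) and 0 with ATB (0.046%). Whether the sex difference changed with ATB was not tested. The female Pxr+/+ control mice also enter the comparisons of genotype and of ATB in females, so these sets of values are not independent. The 75th percentile of their signal before normalization was 404 to 459, against 309.5 to 388.5 in male Pxr+/+ control mice and 333 to 486 in female Pxr-/- control mice, and the part of this brightness in the results was not tested. All 29 members whose groups did not overlap were lower in males, against 16% of all genes. Fcgr1, the high-affinity IgG receptor gene, was at 6.04, 6.16 and 6.30 in males and at 7.11, 7.45 and 7.74 in females, a gap with no overlap and a difference of -1.27 ± 0.19 (limma adjusted p = 1.31e-06). Vsig4 was at 8.34, 8.53 and 8.96 against 9.82, 10.09 and 10.26, with -1.49 ± 0.24 (9.27e-06), and Itgax, which encodes CD11c, at 5.58, 6.03 and 6.33 against 6.57, 7.10 and 7.15, with -1.01 ± 0.16 (9.73e-06). In both genes every male lay below every female. On the brightest probe of each gene, all members of the C1q (3), scavenger and lectin (5), Fc receptor (6), lysosomal (8) and tested lineage (2) groups were called, as were 5 of 6 resident markers. The 4 members not called were Marco, Ptprc, Itgam and Cx3cr1. The brightest Ptprc probe gave -0.18, but its other 4 tested probes, between -0.98 and -0.35, were all called (limma adjusted p from 0.000903 to 0.0446), and the second Csf1r probe was higher in males (0.31, limma adjusted p = 0.00275). The second Mpeg1 probe (-0.39, limma adjusted p = 0.0749) and the dimmest Pilra probe (-0.094, limma adjusted p = 0.525) were not called. Of the other cell markers, 7 of 9 T and NK cell, 7 of 10 endothelial, 6 of 8 stellate and fibroblast, 3 of 6 dendritic cell and 1 of 8 hepatocyte genes were called lower in males, with medians of -1.05, -0.53, -0.67, -0.54 and -0.09. The neutrophil and B cell lists had 1 call of 5 each, Camp and Cd79b, and medians of -0.80 and -0.38. With quantile normalization the calls of the endothelial list fell to 5, of the stellate and fibroblast list to 1 and of the B cell list to 0, while the other 4 lists kept their counts. The summed T and NK cell signal (log2) was 13.10 to 13.80 in males and 13.10 to 13.75 in females. The summed endothelial signal was 14.10 to 14.52 against 14.65 to 15.07. The brightest probes weigh most in such sums, which therefore do not give the level of most genes of a list. The part of these cells in the members' difference was not tested.

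In Pxr-/- control mice 14 of 36 members were called lower in males and 0 higher, against 13.7% of all genes called lower and 16.2% either way. The median was -0.65 (-0.13 over all genes), and 7 members had groups that did not overlap, against 5.76% of all genes. The lowest adjusted p values were those of Itgax, Laptm5 and Irf8, with differences of -0.72 ± 0.17, -0.71 ± 0.18 and -0.59 ± 0.15 (limma adjusted p = 0.00310, 0.00432 and 0.00509). Itgax was at 5.92, 5.98, 6.00, 6.01 and 6.09 in the 5 males and at 6.10, 6.59 and 7.58 in females, so that the groups touched without overlapping. Laptm5, a lysosomal membrane protein gene of leukocytes, was at 7.06, 7.20, 7.25, 7.46 and 7.50 against 7.76, 8.05 and 8.31, also without overlap. The count was 3 without male mouse 6, 7 without male mouse 2 and 9 without male mouse 3; without female mouse 1, 3, 4 or 6 it was 9, 6, 9 and 8. Quantile normalization called 7 (6.26% of all genes lower). Among markers of other cells, 6 of 9 T and NK cell genes were called lower in males, also with quantile normalization, and their median of -0.82 lay below that of the members. The summed T and NK cell signal (log2) was 13.21 to 13.76 in males and 12.26 to 13.69 in females. Calls lower in males were also held by the hepatocyte (3 of 8), endothelial (2 of 10), neutrophil (2 of 5) and dendritic cell lists (2 of 6), with 0, 0, 0 and 2 left under quantile normalization. The part of these cells in the members' difference was not tested.

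With ATB, 16 members were called lower in Pxr+/+ males than females and 0 higher, against 9.08% of all genes called lower and 12.5% either way, with a median of -0.64 (-0.04 over all genes). Here the groups overlapped for all 36 members, while 4.43% of all genes were lower in males without overlap. The resident markers led this comparison: Vsig4 (-0.98 ± 0.24), Folr2 (-0.96 ± 0.25) and Clec4f (-0.64 ± 0.17) had the lowest adjusted p (0.00440, 0.00728 and 0.00872 in limma), and 4 of 6 resident markers were called. Vsig4 was at 7.77, 8.52 and 8.93 in males and at 8.60, 9.43 and 10.17 in females, where the 3 lower females lay inside the male range. The count was 10, 6 and 5 without male mouse 1, 3 and 4, and 5, 5 and 3 without female mouse 1, 3 and 6. T and NK cell genes had 7 of 9 calls lower in males, with and without quantile normalization, and a median of -0.89, and the endothelial list had 2 of 10 (-0.33). The summed T and NK cell signal (log2) was 13.62 to 14.23 in males and 13.20 to 14.08 in females, and the part of these cells was not tested. In Pxr-/- ATB mice 1 member was called lower in males, Itgax (-0.56 ± 0.16), and 1 higher, Mpeg1 (0.52 ± 0.19), whereas 23.3% of all genes were called lower, 2.54% higher and 25.9% either way. The median of the members was -0.14 against -0.17 over all genes, and it was 0.06 with quantile normalization, so it has no settled sign. Mpeg1 was at 11.53, 11.70 and 12.43 in males and 10.85, 11.31 and 11.96 in females, overlapping, and its second probe gave -0.077. Leaving out male mouse 3 or 4, or female mouse 2, 3 or 4, left 1 call, that of Itgax. The call of Itgax ended with quantile normalization (-0.38, limma adjusted p = 0.0838), and that of Mpeg1 ended when the wash batch was left out (0.52, limma adjusted p = 0.0504). In this comparison 7 of 9 T and NK cell genes (median -0.73) and 4 of 8 stellate cell and fibroblast genes (-0.57) were called lower in males, 6 and 1 with quantile normalization, and their part was not tested.

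**Figure D5:**
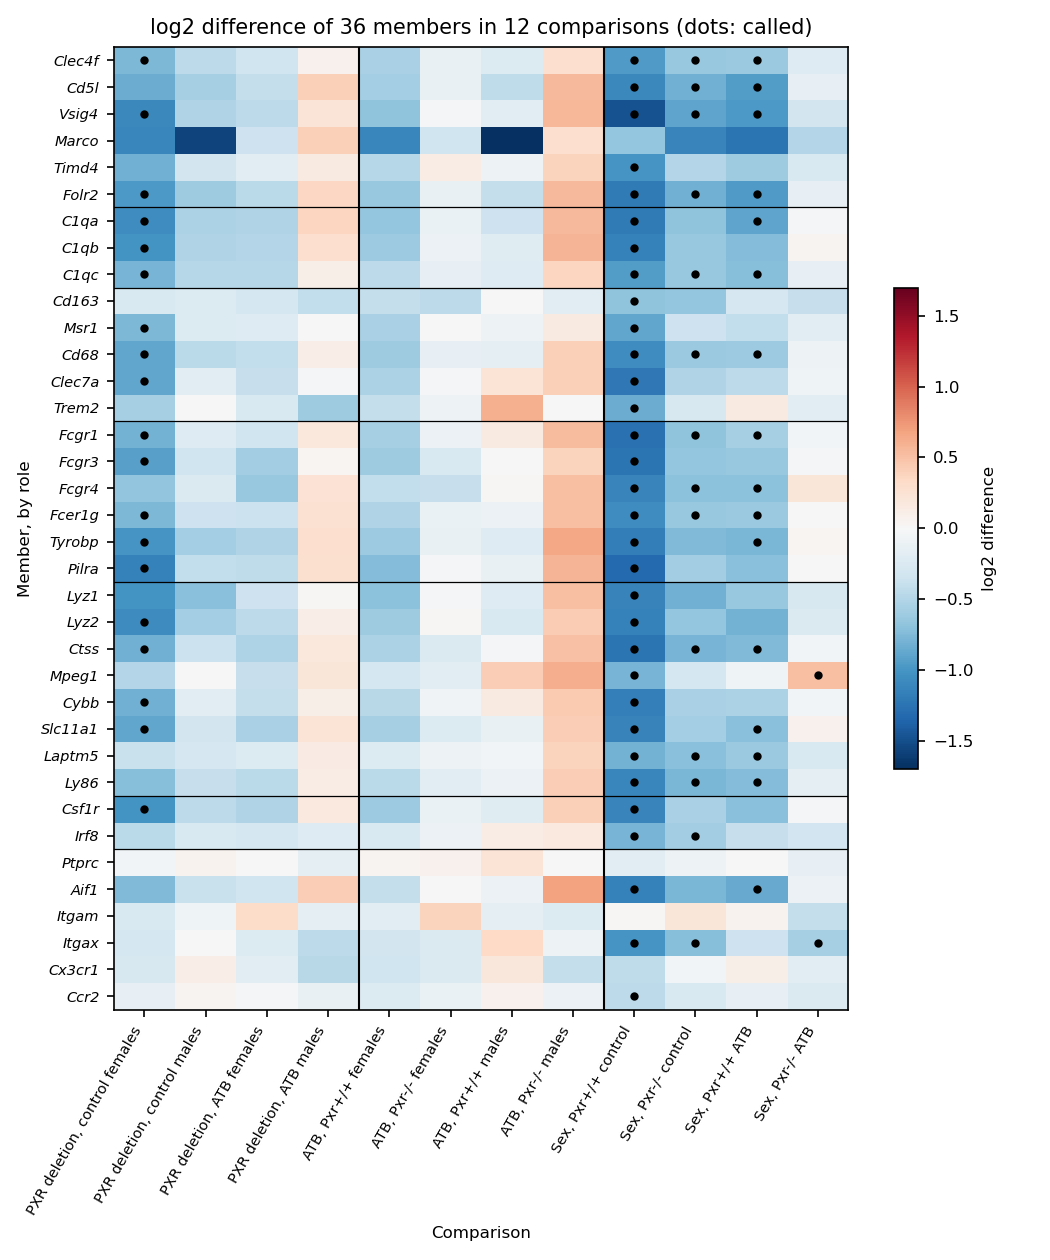
Colour gives the log2 difference of each of the 36 tested members (rows, by role) in 12 comparisons (columns: Pxr-/- less Pxr+/+, ATB less control, male less female); dots mark calls, which number 19 in the column for PXR deletion in control females and 32, 14, 16 and 2 in the sex columns. With quantile normalization the members' median in the last column, -0.14 here, is 0.06.

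The resident markers and the monocyte and pan-myeloid genes lay furthest apart in male Pxr+/+ ATB mice. There the mean of the resident markers less that of the other members was -0.33 ± 0.27 (-0.65 to 0.04), against 0.17 ± 0.18 (0.02 to 0.43) in male Pxr+/+ control mice (SD, n = 6 each), so that the groups overlapped at their edges. The median ATB differences in these males were -0.32 for the resident and -0.07 for the other members, with no call, and the difference between the sets was not tested. The resident differences ran from -1.69 to -0.09, and the largest was that of Marco. Its signal was 10.98 ± 0.96 in control and 9.29 ± 1.24 in ATB males (SD, n = 6 each). Marco counts in the resident mean like each other marker, and its part in the resident mean less that of the other members was not tested. The mean of the resident markers less that of the other members was 0.28 ± 0.29 in female Pxr+/+ control and 0.04 ± 0.21 in female Pxr-/- control mice, and it was -0.22 ± 0.33 in male Pxr-/- control mice (SD, n = 6, 6 and 5). With ATB it was 0.06 ± 0.34 (-0.46 to 0.47) in female Pxr+/+ and 0.05 ± 0.32 (-0.32 to 0.60) in female Pxr-/- mice. In male Pxr-/- ATB mice it was -0.10 ± 0.56 (-0.75 to 0.96; SD, n = 6 in each ATB group). These spreads overlap between genotypes in both sexes. The median differences in the PXR deletion comparison were -0.91 for the 6 resident and -0.78 for the 30 other members in control females, with 3 and 16 calls, and -1.05 and -1.11 between the sexes in Pxr+/+ control mice, with 5 and 27 calls. For the leukocyte recruitment genes these medians were -0.27 and -0.43.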

How the data were processed

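Liver RNA of 47 mice was labelled with Cy3 and hybridised to mouse arrays, which the authors read with Agilent Feature Extraction 10.10.1.1. Their deposited scanner files hold linear intensity values per spot: median and mean pixel brightness and local background with nothing subtracted, beside a processed signal from which the scanner software removed background. The authors also deposited log2 values for 33383 probes, made by filtering, wash batch correction and CrossNorm normalization; over 32791 shared probes all 47 arrays correlated best with themselves in the values computed here (r from 0.999 to 1.00).

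Here the median signal was put on a log2 scale and averaged over the spots of a probe, after control spots and 422 non-uniform spots had been left out. Probes that were clearly above background in 5 or more mice of some group were kept (32974 of 56605). The wash batch effect was removed with group means kept, and arrays were normalized with CrossNorm: stacks of 8 arrays, drawn with 1 from every group, were quantile normalized, and values were averaged over 300 random draws with a fixed seed. The authors' filter and stacking are not given in the sources used here. Limma 3.58.1 (R 4.3.3, data.table, version 1.17.8) fitted the 8 groups and the wash batch over all 47 arrays. Differences are Pxr-/- less Pxr+/+, ATB less control and male less female, and differences between effects were contrasts in the same model. A probe was called at a Benjamini-Hochberg false discovery rate of 0.05 over all tested probes and a fold change above 1.2. A gene was read from its brightest probe, named as in the scanner files. The procedure was run on simulated data with independent noise per probe and a set of probes changed by known folds in a single group. The simulation held no shift shared by most genes of a group and no correlation between genes. It therefore cannot tell how the normalization handles these. Matplotlib 3.10.9 (Python 3.11.15) drew the figures.

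The members and the marker lists were chosen with earlier results of these data known. Every member could be named, and full statistics were given for the 3 called members with the lowest adjusted p in a comparison; others named beside them illustrate a group. Groups were taken from the labels, which do not give the cage, so p-values rest on the spread between mice and not between cages. That spread was 1 value per probe, pooled over the 8 groups and moderated by limma, and not that of the compared mice alone. Spreads differed between groups: the SD of Vsig4 was 0.15 in female Pxr+/+ control and 0.75 in female Pxr+/+ ATB mice. No array pair held identical values. The number of arrays and the signal over background limit the precision. Alternatives are listed in the closing section.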

Additional observations from a re-analysis of the deposited data

Results flagged for a closer look

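A mouse was noted when its gap to the nearest other mouse of its group, relative to the range of the group, passed the 95% limit of Dixon's test. Of 312 groups of 5 or 6 values checked, 17 held such a mouse, which is close to the 5% that chance gives. Male Pxr-/- ATB mouse 1 was high for Marco (14.77, the others 7.61 to 9.38), Fcer1g (11.35, the others 9.49 to 10.11), Lyz2 (14.11, the others 11.53 to 12.46), Laptm5 (8.78, the others 7.19 to 7.65) and the mean level of the resident markers (1.49, the others -1.36 to -0.30). Mouse 5 of that group was low for Clec4f (11.12, the others 11.68 to 11.94). Female Pxr-/- ATB mouse 6 was high for Ctss (12.50), Cybb (7.54) and Irf8 (9.32), and mouse 1 was low for Ptprc (11.28). Female Pxr+/+ control mouse 3 was high for Timd4 (8.88) and Cybb (8.18), and mouse 4 was low for Itgax (6.57). Female Pxr+/+ ATB mouse 1 was high for Ptprc (11.9). Male Pxr-/- control mouse 6 was low for Cd163 (8.07) and Fcgr3 (7.28), and male Pxr+/+ control mouse 4 was low for C1qc (10.64).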

How the results depend on the processing

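The counts of members called were recomputed under other settings. PXR deletion in control females gave 19 calls in the reported analysis, 7 with quantile normalization, 7 with normexp followed by quantile normalization, and 4 with the scanner's processed signal less the 75th percentile. For sex in Pxr-/- control mice (14) the same 3 settings gave 7, 6 and 4, and the authors' processed table and no filter on dim probes gave 9 each. Sex in Pxr+/+ ATB mice (16) gave 9 without a filter, 10 without the wash batch and 8 with a fit of the compared groups alone. Sex in Pxr-/- ATB mice (2) gave 1 with each of quantile normalization, normexp, the processed signal, no filter, no wash batch, only the groups compared, and every tested probe of the gene called, and 4 with any probe called. The call left was that of Mpeg1 in the first 3 of these settings, where Itgax lost its call, and that of Itgax in the next 4, where Mpeg1 lost its call. The rule that every tested probe be called was chosen after seeing the data. Under it 3 differences changed sign: Csf1r in PXR deletion in control females (0.040), Csf1r in sex in Pxr+/+ control mice (0.31) and Mpeg1 in sex in Pxr-/- ATB mice (-0.077). The cause of these changes was not tested. When each mouse was left out in turn, the counts ranged from 3 to 25 for PXR deletion in control females, 30 to 32 for sex in Pxr+/+ control, 3 to 18 in Pxr-/- control, 3 to 24 in Pxr+/+ ATB and 1 to 3 in Pxr-/- ATB mice, and stayed at 0 in the 11 other comparisons and tests of differences. Of the values of single called members under other settings, 929 kept their call, 147 lost it and 3 changed sign. Same-numbered mice did not deviate together (69 pairs, r from -0.34 to 0.55, 15 above 0.1), so the replicate numbers do not pair them; with the replicate number as a block the counts were 20, 32, 11, 19 and 2 in the order above and 0 elsewhere.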
